A study of Arabidopsis thaliana with 4 samples.

Results

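The TC plates numbered 13 and above hold 1152 of the 21740 probes with a plate-and-well name and a value on a tiling array for H3K27me3, the trimethylated form of lysine 27 of histone H3. A probe name gives a plate series (such as TA, TB or TC), a plate number, a row from A to H and a well from 1 to 12. The members were chosen by that name, and the plate limit of 13 was set after values of these arrays had been seen. Their level is therefore a description, and no test of it is given. The probes fill 14 plates, of which 9 are complete with 96 probes. Plates 13, 17, 25, 28 and 30 hold 34, 60, 62, 70 and 62 valued probes. Another 15 names of the kind are listed without a value, and all are on plate 25.

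All arrays form 1 group, the immunoprecipitate (IP) of a commercial H3K27me3 antibody set against input DNA, from 10-day seedlings of the col-0 ecotype of Arabidopsis thaliana, kept without treatment in 0.5X liquid MS at 22 °C under a 16 h photoperiod. There were 2 immunoprecipitations, called replicates I and II, each paired with its input on 2 arrays of exchanged dyes. Both arrays of a dye exchange carry the same deposited value for every probe, with a largest difference of 0, so each replicate gives 1 value and n = 2. The labels do not say that I and II came from separate cultures, and whole seedlings mix many cell types.

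H3K27me3 is written by Polycomb repressive complex 2 and marks genes kept silent during development. In Arabidopsis it lies mostly on genes of the euchromatic arms, often as a domain over the whole transcribed part of a gene. Repeat-rich heterochromatin around centromeres instead carries H3K9me2 and dense DNA methylation and is poor in H3K27me3. Which sequences the TC plates from 13 on hold was not analysed here, so no gene, position or sequence is given for a probe.

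The deposited value is a score that behaves as a log ratio, with an unstated log base, centring and direction. It is given in its own units, relative to the median of all plate-and-well probes in the same replicate. Before centring, the medians stood at -0.94 (I) and -1.20 (II). The likely direction is IP over input, on the sole ground that the array has its long tail on the high side. With the sign turned, every "above" becomes "below".

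The TC plates from 13 on were low and narrow in both replicates. Their medians were -0.47 (I) and -0.40 units (II), a mean of -0.43 ± 0.05 (SD, n = 2). TA plates 30 to 57, a stretch of 2597 probes that is also poor in high values, had medians of -0.27 and -0.31 units. The member median thus lay 0.20 units under that of the TA plates in replicate I and 0.08 under it in replicate II (mean difference -0.14 ± 0.08, SD, n = 2). The direction was the same in both replicates, and their sizes differed. Against all 20588 other probes the difference was -0.51 units in replicate I and -0.43 in II (mean -0.47 ± 0.06, SD, n = 2).

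Of the 1152 members, 976 (84.7%) lay below the array median in both replicates. This share was 63.5% on TA plates 30 to 57 and 39.4% over all other probes. Members also lay below the mode of the array, its most common value, which was -0.31 units in replicate I and -0.19 in II. The share under the mode was 74.1% of members in replicate I and 76.5% in II, against 46.2% and 60.8% on the TA plates.

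The members were narrower than the other plates mainly at the upper side. Between the quartiles the members spanned 0.283 units in replicate I and 0.316 in II, while TA plates 30 to 57 spanned 0.701 and 0.610 and all other probes 1.33 and 0.930. The 95th percentile of members was 0.30 units in replicate I and 0.15 in II, against 1.76 and 1.16 on the TA plates. At the low end the 5th percentile was -0.76 and -0.72 units for members, -0.70 and -0.77 for the TA plates and -0.63 and -0.60 for all other probes. The curves of cumulative share show this, with the members rising steeply and reaching their top early.

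**Figure D1:**
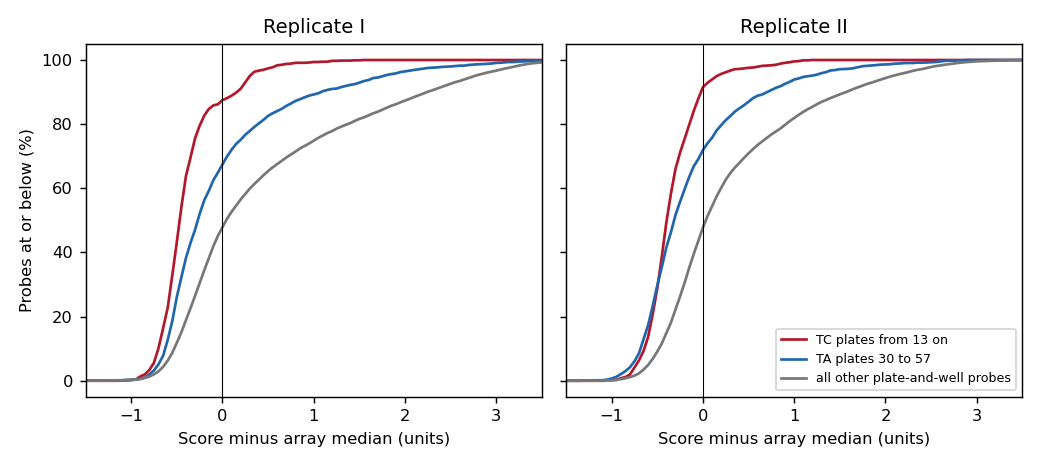
Cumulative share of probes (vertical axis, %) at or below a score (horizontal axis, units relative to the array median) in replicates I and II, for the 1152 members, the 2597 probes of TA plates 30 to 57 and all 20588 other probes, which include those TA plates. At -0.7 units in replicate I the curves stand at 10.2% of members, 5.16% of TA probes and 2.95% of all other probes, and the members reach 95% at 0.30 units in replicate I and 0.15 in II.

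A large share of members was clearly low, yet few were extreme. At least 0.5 units below the median in both replicates lay 220 members (19.1%), against a background of 5.2% over all probes and 16.7% on TA plates 30 to 57. As the plates were chosen on these values, nothing is read from the gap to the background. The rank of the members above the TA plates also rests on the centring, since with centring on the mode the shares were 0.521% of members and 0.732% of TA probes. At least 0.75 units below in both replicates lay 12 members (1.04%), against a background of 0.455% and 1.23% on the TA plates. No member lay 1 unit below in both, where the background is 0.046% and the TA plates had 4 probes.

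The lowest member was TC25A01, at -0.97 units in replicate I and -1.06 in II (mean -1.01 ± 0.06, SD, n = 2). TC24C03 followed at -0.98 and -0.86 units (mean -0.92 ± 0.09, SD, n = 2). By mean they lay at percentiles 0.0782 and 0.189 of all probes.

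Plate by plate, 12 of the 14 plates were among the 30 lowest of the 231 plates of the array by median. So were 14 of the 28 plates of TA plates 30 to 57. TC plates 18 to 30 had medians between -0.61 and -0.35 units in replicate I and between -0.48 and -0.36 in replicate II. By the mean of both replicates the lowest of these TC plates was plate 21, at -0.59 units in replicate I and -0.41 in II. Plate 19 was close to it, at -0.61 and -0.37 units. Plates 13 and 17, which come first in the name order, stood above the others. Plate 13 had medians of -0.30 and -0.10 units, and plate 17 had 0.22 and -0.11.

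Of the 14 plates, only plate 17 had a median above that of the array in a replicate. Its median was 0.33 units higher in replicate I than in replicate II. Plate 19 differed the other way, with replicate I minus replicate II at -0.24 units. Over the 14 plates this difference had a median of -0.05 units.

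**Figure D2:**
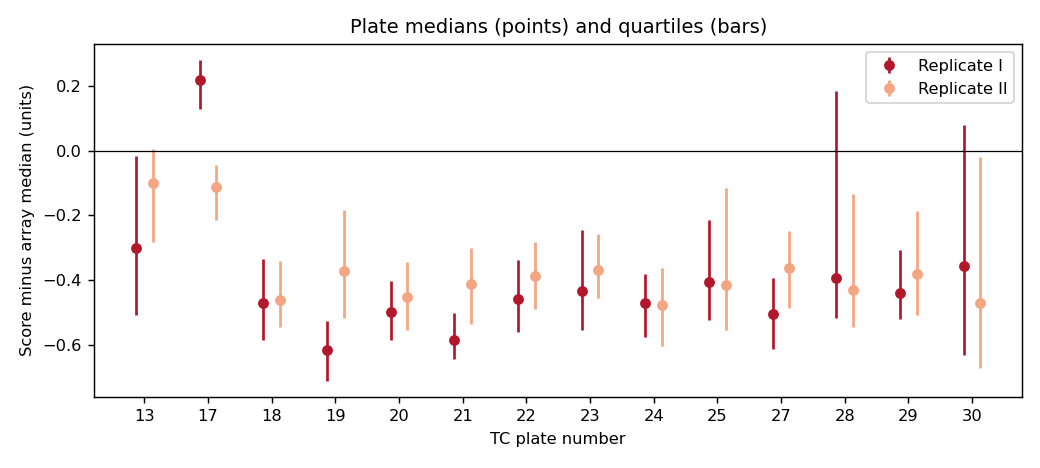
Median score of each TC plate from 13 on (points, units relative to the array median) with the 25th and 75th percentile of its probes (bars), for replicates I and II. Plate 17 stands apart at 0.22 units in replicate I and -0.11 in II, and plates 18 to 30 lie between -0.61 and -0.35 in both replicates.

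Plate 13, the first one inside, had medians of -0.30 and -0.10 units, and none of its 34 probes reached 1 unit in both replicates. Plate 12, the last one outside, had medians of -0.17 and -0.02 units and 7 such probes of 96, where the share over all probes is 16.2%. Probes past 0.5 units in both replicates numbered 1 of 34 on plate 13 and 13 of 96 on plate 12, where the share over all probes is 25.6%. The limit was set with these values known, and nothing is read from the step. The first 12 members of plate 13 ranged from -0.62 to -0.02 units in replicate I and from -0.36 to 0.05 in II, and the last 12 probes of plate 12 ranged from -0.71 to 1.08 and from -0.32 to 0.98.

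Only 1 of the 1152 members (0.0868%) reached 1 unit or more above the median in I and in II, where the background is 16.2% of all probes and TA plates 30 to 57 have 5.74%. The plate limit was chosen with these values known, and nothing is read from the gap. The count was 5 in replicate II alone and 7 in replicate I alone. That member was TC18H08, at 1.16 units in replicate I and 1.08 in II (mean 1.12 ± 0.06, SD, n = 2). The highest member by mean was TC30B04, at 1.45 and 0.83 units (mean 1.14 ± 0.44, SD, n = 2). The order of these 2 is not settled, since they differ by less than the SD between replicates. Neither was high for the array as a whole, at percentiles 81.4 and 81.6 by mean.

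Weak peaks, here probes at least 0.5 units above the median in both replicates, numbered 17 of 1152 members (1.48%). The background was 25.6% of all probes, and 300 of 2597 probes (11.6%) passed on TA plates 30 to 57. The members' peaks ranged from 0.54 to 1.52 units in replicate I (median 0.67) and from 0.50 to 1.09 in II (median 0.83). Replicate I was the higher of the pair in 6 of 17. At least 0.75 units above in both replicates lay 4 members, with a background of 20.4%. The peaks of the TA plates had medians of 1.63 and 1.04 units, and there replicate I was higher in 267 of 300. These were taller peaks, and over all probes replicate I had the wider spread, with an SD of 1.06 units against 0.81 in II. Among members, every peak of plate 25 was higher in replicate II. The counts of 6 of 17 and 267 of 300 are therefore not alike, and the reason for the gap was not tested. Just inside the rule the lower of the 2 replicate values was 0.502, 0.538 and 0.555 units, and just outside it was 0.489, 0.489 and 0.457.

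The peaks were confined, by this rule, to 6 of the 14 plates. Plate 25 held 6, plate 18 held 4, plate 30 held 3, plate 23 held 2, and plates 13 and 20 held 1 each. Without the incomplete plates 7 peaks were left, and without plate 25 there were 11. On TA plates 30 to 57, 26 of 28 plates held a peak.

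By this rule most of these peaks were single probes. They formed 14 runs of consecutive wells, 11 of 1 probe and 3 of 2, whereas the 300 peaks of the TA plates formed 100 runs of up to 20 probes. The wells beside member peaks were less low than wells further off. Medians in replicates I and II were -0.05 and -0.06 units in the well before and -0.17 and -0.10 in the well after. At 3 wells from a member peak they were -0.38 and -0.39 before and -0.45 and -0.33 after. A peak was followed by another in 17.6% of cases among members, in 66.9% on the TA plates and in 76.2% over all other probes. After a probe that was no peak, a peak followed in 1.25% of cases among members, 4.37% on the TA plates and 8.82% over all other probes. Peaks were thus fewer among members after both kinds of probe, on plates chosen with these values known. In 5 of 17 cases both neighbouring probes of a member peak lay below the median in both replicates, compared with 4 of 298 on the TA plates. Well 10 of row C and wells 8 and 10 of row E on plate 25, described below, were among the 5. Below the median in both replicates lay 84.7% of all members and 63.5% of TA probes, so nothing is read from this gap. No expected run length was computed.

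The pairs lay on plates 18, 30 and 25. In row H of plate 18, wells 7 and 8 had 1.18 and 1.16 units in replicate I and 0.70 and 1.08 in replicate II. The probe before them was at -0.48 units in replicate I and -0.57 in II, so the step between neighbouring wells exceeded 1 unit in both. Well 9 had 0.58 and 0.23 units, well 10 had -0.05 and -0.06, and well 11 was again high at 1.52 and 0.61. On plate 25 the pair was well 12 of row A and well 1 of row B, whose mean was 0.67 units (I) and 0.89 units (II).

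On plate 30 the peaks in wells 4 and 5 of row B sat in a raised row. All 11 probes from well 2 to well 12 were above the median in both replicates, with a median of 0.48 units in replicate I (SD over probes 0.37) and 0.45 in II (0.29). Only 2 of the 11 passed the rule in both. The 15 probes before it, from row H of plate 29 to well 1 of row B of plate 30, were all low and nearly alike. Their median lay at -0.72 units in replicate I (SD over probes 0.06) and -0.77 in II (0.06). At the border, well 2 of row B had 0.46 units in replicate I and 1.07 in II, and well 1 had -0.67 and -0.79. The low block ended the longest run of members at least 0.5 units below the median in both replicates, 18 probes with means of -0.70 and -0.74 units.

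**Figure D3:**
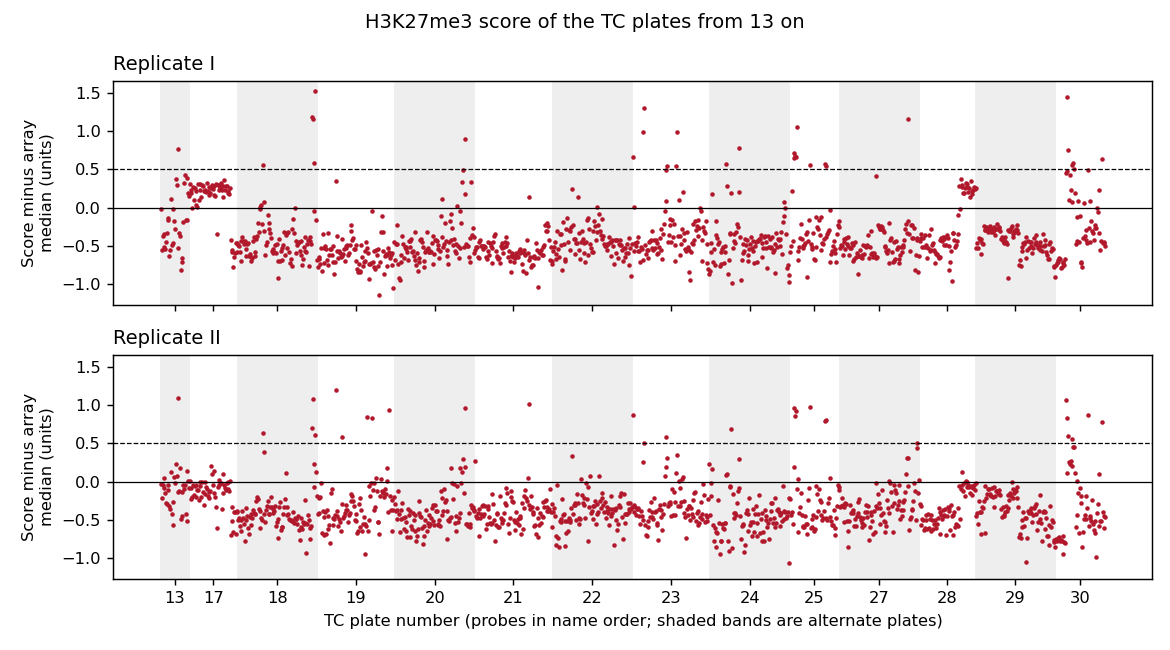
Score of each of the 1152 members (points, units relative to the array median) in name order, for replicates I and II; shaded bands are alternate plates, the solid line is the array median and the dashed line is 0.5 units. The bulk lies near -0.47 units in replicate I and -0.40 in II, with scattered points above the dashed line and level blocks on plates 17, 28 and 29.

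Plate 25 had a pattern by well. The file lists 77 of its wells, and 15 of them carry no value. All 15 are even-numbered wells of rows A, C, E and G, and they make up 15 of the 21 plate-and-well probes of the array without a value. Of the 20 listed wells of that kind on plate 25, only 5 have a value, and all 5 were weak peaks. They ranged from 0.54 to 0.67 units in replicate I and from 0.78 to 0.98 in II, a narrow band.

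The other wells of plate 25 were mostly low, with medians of -0.44 units in replicate I and -0.43 in II. Some were raised beside the peaks in wells 10 and 12 of row A. Well 11 of row A had 0.72 and 0.19 units. Wells 1 and 2 of row B had 0.66 and 1.05 units in replicate I and 0.92 and -0.10 in II. Among the 21 odd-numbered wells of the same rows no probe passed, with medians of -0.39 units in replicate I and -0.43 in II. Among the 36 wells of rows B, D and F 1 probe passed, with medians of -0.49 and -0.43 units. On the other plates the even wells of rows A, C, E and G held 2 peaks among 275 probes, 0.727%. Thus 5 of the 17 weak peaks shared a set of wells in which most values are missing, and the part of that in their height was not tested. The pattern was noticed in the data, and no test is made of it.

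**Figure D4:**
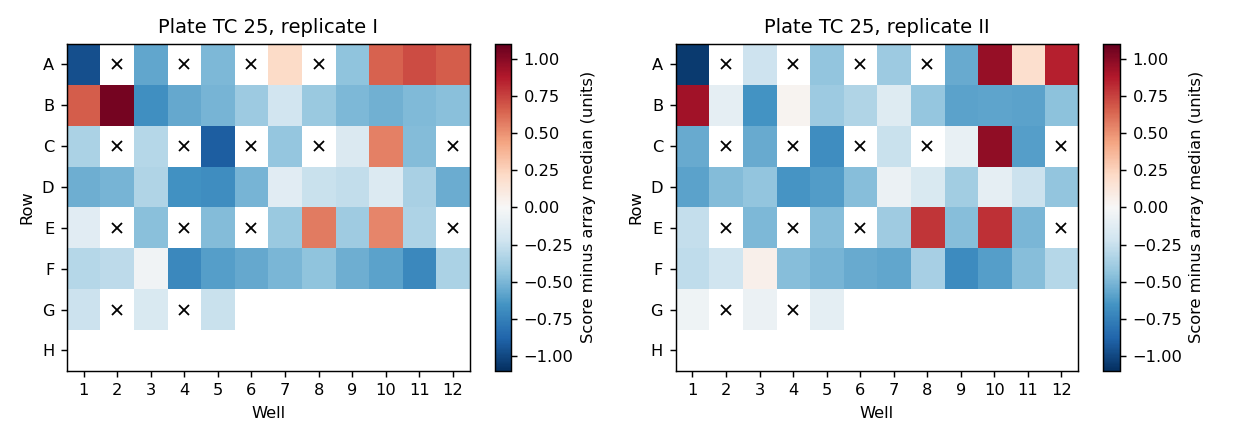
Plate TC 25 as rows A to H by wells 1 to 12, coloured by score (units relative to the array median) in replicates I and II; crosses mark listed wells without a value and blank wells are not in the file. The 5 valued even wells of rows A, C and E are red in both replicates, at 0.54 to 0.67 and 0.78 to 0.98 units, among crosses.

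The replicates shared the members' peaks only in part. In replicate I alone 30 members reached 0.5 units (background 32.9%), in replicate II alone 28 did (background 27.7%), and 17 did in both, which is 56.7% of the list of replicate I and 60.7% of that of replicate II. On TA plates 30 to 57 the shared probes were 66.4% and 88.8% of the lists. Members past the rule in replicate I had a median of 0.61 units in replicate II, and those past it in replicate II had a median of 0.57 in replicate I. In 5 members a value past 0.5 units in a replicate met a value below the median in the other, 1 high in replicate I and 4 in replicate II. Of the 2597 probes of TA plates 30 to 57, 27 were high in replicate I only in this way and 7 in replicate II. Of all 20588 other probes these numbers were 204 and 64. Of the 5 members, 4 lay on plate 19 and were high in replicate II, at 0.58 to 0.93 units, with -0.63 to -0.05 in replicate I. Plate 19 held no probe past the rule in both replicates.

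Members varied little between replicates, and also little among themselves. The pooled SD between the 2 values of a probe was 0.188 units for members, 0.266 for TA plates 30 to 57 and 0.326 for all other probes. The SD over members was 0.340 units in replicate I and 0.299 in II, against 0.786 and 0.621 on the TA plates. Over the 1152 members, which share arrays and are not independent, the replicates correlated at Pearson's r = 0.671 and Spearman's rho = 0.533. The TA plates gave 0.901 and 0.773, and 0.796 and 0.729 over their 2448 probes below the rule of 1 unit. Within single member plates r ranged from 0.33 on plate 21 to 0.87 on plate 30, with a median of 0.76.

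Neighbouring members correlated less than neighbours on TA plates 30 to 57 did, over a narrower range of values. In units they lay closer together. The median SD over 12 consecutive wells was 0.171 units in replicate I and 0.184 in II for members, against 0.366 and 0.325 on the TA plates. When a member and its neighbour were read from different replicates, so that they came from different arrays, r was 0.361 over 1133 pairs. It was 0.749 on TA plates 30 to 57, and 0.548 when the TA probes past 1 unit in both replicates were left out. At 5 wells apart it was 0.154 for members and 0.474 for the TA plates, and at 12 wells 0.048 and 0.256. Within replicate I neighbouring members correlated at 0.590 and within replicate II at 0.404. Without the level blocks of plates 17 and 28 described next, these were 0.486 and 0.381, and the value between replicates was 0.310. Without the incomplete plates it was 0.234, against 0.361 with them.

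**Figure D5:**
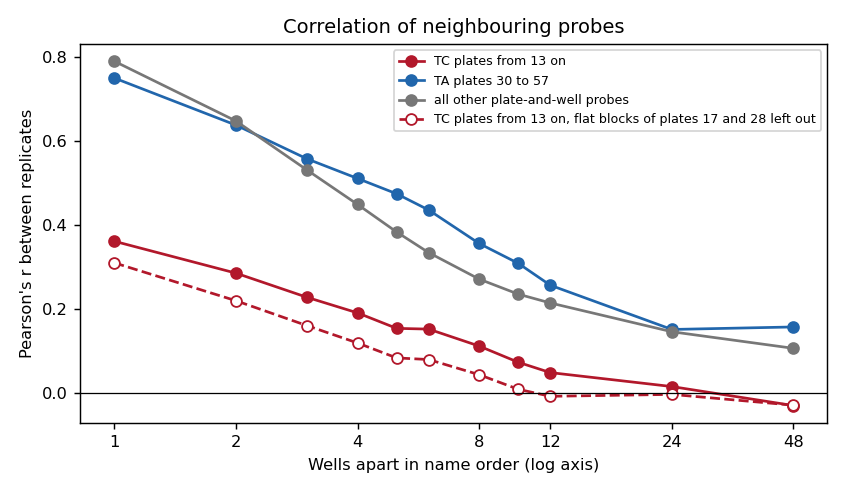
Pearson's r between a probe in 1 replicate and the probe a given number of wells further on in the other replicate (vertical axis) against the number of wells (log axis), for the members, TA plates 30 to 57 and all other probes; the dashed line leaves out the level blocks of plates 17 and 28. The members start at 0.361 and lie below the TA plates at every distance drawn.

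Many members lay in level stretches. A window of 12 consecutive wells was called flat when the SD of its values was at most 0.15 units in both replicates. Of the members' 1057 windows, 252 (23.8%) were flat, against a background of 2.2% over all windows of the array. TA plates 30 to 57 had 193 flat windows of 2488 (7.76%). Flat windows overlap and the rule was set after the values were seen, so the counts describe the plates only. Together the members' flat windows covered 552 members (47.9%). This is a share of probes, not of windows, and it was not computed for other plates, so nothing is read from its size. The medians of the members' flat windows reached from -0.73 to 0.28 units in replicate I and from -0.77 to -0.05 in II, so the blocks lay at several levels.

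The highest flat stretches were on plates 17 and 28, with limits set by eye. The block on plate 17 held 51 probes, from the start of row D to well 3 of row H, with medians of 0.23 units in replicate I (SD over probes 0.11) and -0.09 in II (0.13). The block on plate 28 held 21 probes, from well 2 of row E to well 10 of row F, with medians of 0.26 units (SD over probes 0.08) and -0.07 (0.12). The 2 blocks thus had nearly the same pair of levels. Replicate I was above replicate II in all 72 probes, while it was above in 386 of the other 1080 members.

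Each block has 1 edge within the listed wells, since no listed well adjoins the start of the plate 17 block or the end of the plate 28 block. In row H of plate 17, well 3 had 0.26 units in replicate I and 0.01 in II, and well 4 had -0.42 and -0.69. The edge on plate 28 was graded and uneven. Well 12 of row D had -0.35 and -0.57 units, and well 1 of row E had -0.09 and -0.35. Inside the block, well 2 had 0.28 and -0.06 units and well 3 had -0.01 and -0.49, so well 3 lay below well 1 in replicate II. Of the 72 block probes 69 were above the median in replicate I, and 9 were in replicate II. In these blocks the members go against a name such as nearly unmarked in replicate I. No block probe was a weak peak.

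All 37 member windows that were flat with a median above 0 in replicate I lay more than 0.25 units lower in replicate II. These windows overlap and lie in the blocks of plates 17 and 28, so they are not separate cases. Outside the TC plates from 13 on, 212 windows were flat, and none of them had a median above 0 in replicate I. A median higher in replicate I than in II by more than 0.25 units was found in 4 of those 212, all on TA plates 30 to 57. Of the other 20588 probes, 661 had a value in replicate I within the quartiles of the blocks, 0.188 to 0.283 units. In replicate II the 72 block probes had a median of -0.08 units (quartiles -0.15 and -0.02), against 0.07 (quartiles -0.11 and 0.26) for those 661. The 72 were not limited to that range. They reached from -0.34 to 0.38 units in replicate I, so the sets are matched only in part.

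Plate 29 held lower blocks of the same kind. The first, 19 probes from well 12 of row A to well 6 of row C, had medians of -0.28 units in replicate I and -0.15 in II, with SDs over probes of 0.03 and 0.06. The second, 13 probes from well 4 of row D to well 4 of row E, had medians of -0.30 and -0.15 units, with SDs of 0.04 and 0.08. The wells between them were lower, and the 4 wells after the second block formed a run at -0.69 and -0.68 units. Here replicate I was below replicate II in 30 of the 32 probes, opposite to the blocks of plates 17 and 28. Plate 29 had no weak peak, and its SD of 0.144 units in replicate I was the smallest of the 14 plates.

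Members were also described by their position within a plate. Medians by row ranged from -0.51 to -0.42 units in replicate I and from -0.43 to -0.34 in II, and medians by well number from -0.52 to -0.42 and from -0.44 to -0.32. In replicate II, where the member median lay 0.08 units under that of TA plates 30 to 57, these ranges are at least as wide as that difference. Even and odd wells had medians of -0.48 and -0.46 units in replicate I and of -0.38 and -0.41 in replicate II. In row D of plate 17 the 6 even wells ranged from 0.22 to 0.31 units in replicate I and the 6 odd wells from -0.01 to 0.19, without overlap. In replicate II they ranged from -0.21 to 0.01 and from -0.23 to -0.05 units, and overlapped. Row D was picked after its values were seen. In row E of the same plate the even wells ranged from 0.14 to 0.31 units in replicate I. The odd wells of row E ranged from 0.10 to 0.32 units in replicate I and overlapped them.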

How the data were processed

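Two-colour arrays of IP and input DNA were compared. The unit of the deposited values is a score per probe, taken from the series matrix; the way the authors normalised it is not given in the sources used here, nor are the log base, direction or centring. The deposited columns of a dye exchange are identical, so averaging gave 1 value per replicate. The median over all 21740 plate-and-well probes was then subtracted within a replicate. No column of per-sample values was left unused. Depth has no meaning for arrays, and 2 replicates limit the precision.

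Neighbours are probes of adjoining wells, by rows of 12 and plates of 96 wells. The members, comparison plates, rules of size and named probes (the 2 highest and 2 lowest by mean; peaks by plate, row and well) were chosen with earlier results of these data known. No test was made, as the members were chosen on the same contrast. Flat windows, blocks and the wells of plate 25 were chosen after seeing the data. The steps for neighbours and runs were tested on simulated data. Alternatives changed the centring, the scaling, the rules, the plates and the replicates. The software was pandas 2.3.3 and numpy 2.4.6 under Python 3.11.15, scipy 1.17.1, and matplotlib 3.10.9 for figures.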

Additional observations from a re-analysis of the deposited data

How the results depend on the processing

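The level (-0.43 units) was -0.18 with centring on the mode and -1.51 without centring; it moved by less than the SD between replicates with equal spread, quantile normalization, plates from 18 on, without the incomplete plates and without the blocks of plates 17 and 28. The 17 weak peaks were 26 with centring on the mode, 0 without centring, 26 at 0.3 units, 4 at 0.75 units, 7 without the incomplete plates, 11 without plate 25, and 28 to 30 with 1 replicate left out. The 220 probes at least 0.5 units below were 6 with centring on the mode, 1112 without centring, 696 at 0.3 units, 12 at 0.75 units, and 330 to 498 with 1 replicate left out. Turning the sign exchanges 17 and 220. The single probe past 1 unit became 5 to 7 with 1 replicate left out. The neighbour correlation was 0.404 to 0.590 within a replicate. The 252 flat windows were 37 at an SD of at most 0.1 units, 514 at 0.2, and 345 to 467 with 1 replicate left out. The share below the median (84.7%) was 87.5 to 91.5%. The range of plate medians (0.554 units) was 0.379 to 0.835. Moves under centring, other rules, the sign and fewer replicates follow from their construction. The falls to 7 peaks without the incomplete plates and to 11 without plate 25 were larger than the share of probes removed. The first kept 864 of 1152 probes and the second 1090, and plate 25 held 6 peaks on its 62 probes. No paired analysis was possible because all samples form 1 group. Signal over background was not used here.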
